A study of Mus musculus with 2 samples.

Results

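The 10 genes described here make, move, bind and break down retinoic acid, the hormone-like derivative of vitamin A. They were chosen by function as Rbp4, Stra6, Rdh10, Aldh1a1, Aldh1a2, Aldh1a3, Crabp1, Crabp2, Cyp26a1 and Cyp26b1, and every probe set whose single platform symbol was one of them was taken. This gave 13 of the 45101 probe sets on the array, and 10 of the 18193 genes with a single platform symbol. The RNA was that of stromal cells isolated from the uterus of C57BL/6 females at day 4 of pregnancy. It was measured on 1 Affymetrix array of pooled RNA from Msx1Msx2-null mice and 1 of pooled RNA from floxed control mice. In the null mice the floxed homeobox genes Msx1 and Msx2 were deleted with PRcre, a Cre recombinase driven by the progesterone receptor gene, so that deletion is directed to the uterine cells that express this receptor and not to stroma alone. The labels do not say whether the floxed control mice also carried PRcre. The design text gives 5 mice per genotype and the extraction protocol gives 4.

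Retinol circulates bound to the carrier Rbp4, which itself rides on transthyretin, and can enter cells through the membrane receptor Stra6. Rdh10 oxidizes retinol to retinal, and the retinaldehyde dehydrogenases Aldh1a1, Aldh1a2 and Aldh1a3 oxidize retinal to retinoic acid. Inside the cell Crabp1 and Crabp2 bind retinoic acid, the enzymes Cyp26a1 and Cyp26b1 degrade it, and what reaches the nucleus acts through heterodimers of the retinoic acid receptors Rara, Rarb and Rarg with the retinoid X receptors. In culture, retinoic acid is known to hold back the decidual differentiation of uterine stromal cells. Cyp26a1 and Rarb are textbook direct targets, so that their transcripts are often read as a sign of retinoic acid action.

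The sequences just upstream of these target genes are shown because they hold the binding element itself, and that of Crabp1 because it had the largest ratio of the 10 genes. The RefSeq promoter table (GRCm38.p6) held 7 of the 10 genes. The retinoic acid response element searched was a direct repeat of the unit AGGTCA, with the variants AGTTCA, then GGGTCA, and finally GGTTCA also allowed for either unit, in which the units are separated by 5 bases, on either strand, in the 250 bases before each annotated start. In the lines for Cyp26a1 and Rarb, capitals mark the repeat units, read 5′ to 3′ on the strand of the gene. In the line for Crabp1, capitals mark GGGCGG or its reverse complement, the core of the GC box.
Cyp26a1, chr19:37697558-37697807, plus strand: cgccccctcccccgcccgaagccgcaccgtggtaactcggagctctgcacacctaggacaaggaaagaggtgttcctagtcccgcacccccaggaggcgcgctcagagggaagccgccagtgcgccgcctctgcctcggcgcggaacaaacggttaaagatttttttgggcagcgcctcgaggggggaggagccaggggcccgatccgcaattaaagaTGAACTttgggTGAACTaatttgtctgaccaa
Rarb, chr14:16575477-16575726, minus strand: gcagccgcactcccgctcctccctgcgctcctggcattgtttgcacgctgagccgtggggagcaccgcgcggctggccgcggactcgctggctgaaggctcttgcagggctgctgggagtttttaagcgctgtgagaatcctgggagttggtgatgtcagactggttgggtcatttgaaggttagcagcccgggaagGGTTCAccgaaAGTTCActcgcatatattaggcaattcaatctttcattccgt
Crabp1, chr9:54764498-54764747, plus strand: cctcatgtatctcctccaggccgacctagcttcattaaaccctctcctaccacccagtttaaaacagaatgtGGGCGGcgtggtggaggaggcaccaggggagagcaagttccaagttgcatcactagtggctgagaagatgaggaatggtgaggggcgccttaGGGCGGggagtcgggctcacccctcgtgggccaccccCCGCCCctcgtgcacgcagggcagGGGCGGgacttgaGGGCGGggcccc

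The direct repeat lay 32 to 16 bases before the start of Cyp26a1, on the opposite strand as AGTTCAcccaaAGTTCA, and 53 to 37 bases before the start of Rarb as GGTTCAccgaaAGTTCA. It was found in 29 of all 32851 windows of this length (0.0883%) and in 1 of the 12 windows of the 7 genes with an entry, that of Cyp26a1, since some of these genes have several annotated starts. The allowed variants include the units of the Cyp26a1 and Rarb elements, so these matches are not an independent finding beside that share. The homeodomain core TAATTG, which Msx proteins can bind, was found on either strand in 2 of the 12 windows, 1 of Cyp26a1 and 1 of Rbp4, against 7.17% of all windows. In Cyp26a1 it lay 42 to 37 bases before the start and did not overlap the repeat. GGGCGG occurred 5 times before Crabp1, was found in 7 of the 12 windows and was present in 32.7% of all windows. These matches describe letters in a short window and do not show that a factor binds there.

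Each value below is the signal of 1 array, so there is no replicate error and no test of the genotype, and effects of genotype, of the mice that were pooled and of the hybridization cannot be told apart. Fewer cells of a type and less RNA per cell cannot be told apart either. Signals are linear MAS5 intensities in arbitrary units. A signal under the median of an array's probe sets, 30.1 in the null array and 31.0 in the control array, was treated as too dim to order. This value is called the floor, and a dim signal was raised to it before a ratio was formed, so that a fold against it is printed as "at least". As a scale of probe noise, the log2 ratio of a single probe set had an SD of 0.32, 0.27 and 0.21 in the dim, middle and bright class of signal, from pairs of probe sets of the same gene in 4690 genes. This SD leaves out all variation between mice, pools and hybridizations. The targeted genes were low in the null array, where Msx1 had a signal of 23.0, against 1581 in the control array, and Msx2 had 14.5, against 63.7.

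The retinoic acid-binding protein genes Crabp1 and Crabp2 were both above the floor in the null array alone, the synthesis enzyme gene Aldh1a2 was 1.69-fold higher there, and Cyp26b1 was above the floor in the control array alone. The genes of retinol carriage, uptake and first oxidation, Aldh1a1 and Cyp26a1 were within 1.5-fold. At a threshold of 2-fold, 1 of the 9 measured genes was higher in the null array, where 1.59% of all 11833 measured genes were, and 0 were lower, where 1.8% of all genes were. At 1.5-fold, 3 were higher and 1 was lower, where 6.79% and 6.92% of all genes were.

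**Figure D1:**
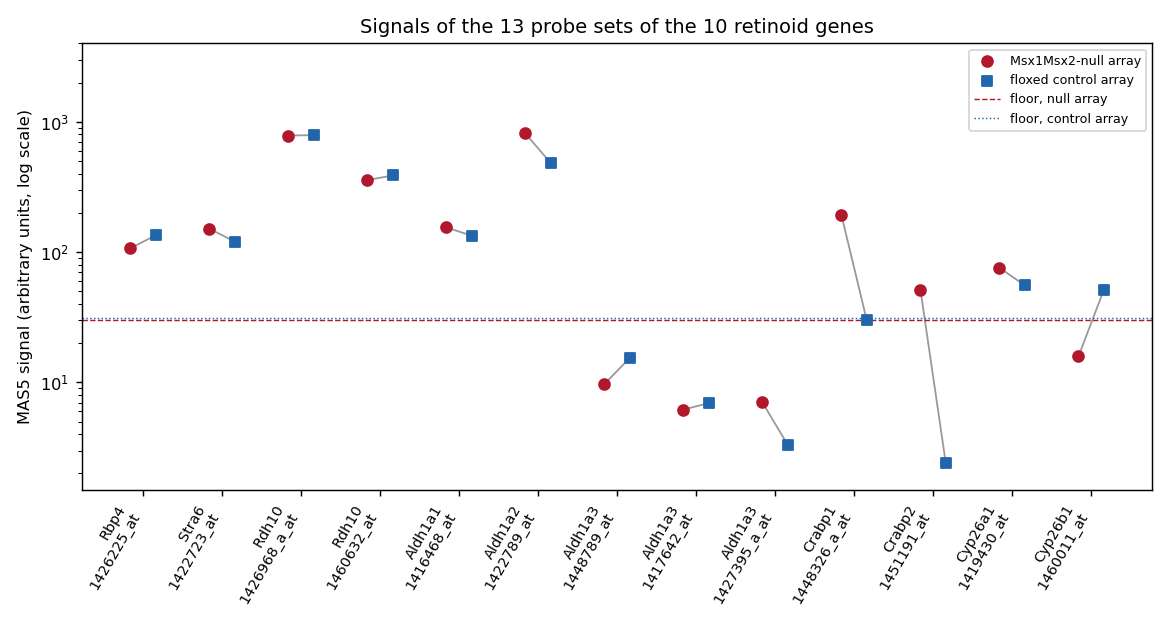
MAS5 signal (log axis, arbitrary units) of each of the 13 probe sets in the Msx1Msx2-null array (red circles) and in the floxed control array (blue squares), joined by a line, with the floor of each array as a broken line. Crabp1 and Crabp2 cross the floor upward in the null array, Cyp26b1 crosses it downward, the 3 Aldh1a3 probe sets lie under it in both arrays, and the Rdh10 pairs are nearly level.

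For the binding proteins, Crabp1 had a signal of 192 in the null array and 30.1 in the control array on probe set 1448326_a_at. The null signal was 6.40 times the floor. The control signal was 0.970 times the floor, at the edge of what the control array orders. The fold was at least 6.20, a log2 ratio of 2.63, or 1.23 with a floor at the 65th percentile. Of 11833 genes, 11 had a ratio at least as high, Crabp1 included, and 16 had one as large in either direction. Among the 373 genes above the floor in the null array alone, whose median null signal was 38.2, 2 had a null signal at least as high as that of Crabp1, itself included. Crabp1 is in that class because its control signal was just under the floor, so this rank only describes the class. Crabp1 binds retinoic acid in the cytosol and is known to limit the amount free to act.

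Crabp2 carries retinoic acid to the nucleus and hands it to its receptor. Its signal was 51.4 in the null array and 2.41 in the control array on probe set 1451191_at, which makes it at least 1.66-fold higher, while with a pseudocount of 32 in place of the floor its log2 ratio of 1.28 passed 2-fold. The measured signals differ 21.3-fold, but the control value is 0.0778 times the floor, where MAS5 signals have no dependable order. The null signal was 1.71 times the floor, and 80 of the 373 genes seen in the null array alone were as bright or brighter. Each binding protein had 1 probe set, so neither value could be set against a second one.

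For synthesis, Aldh1a2, the retinaldehyde dehydrogenase of mesenchyme, had a signal of 815 in the null array and 483 in the control array on probe set 1422789_at. It was far above the floor in both. Its log2 ratio of 0.75 was 3.60 times the SD of bright probe sets. Of 11833 genes, 433 (3.66%) had a ratio as high, Aldh1a2 included, and 7.45% had one as large in either direction. Aldh1a1, an enzyme of the same step, had 155 in the null array and 134 in the control array, a log2 ratio of 0.21 that is within 1 SD of dim probe sets. Its close relative Aldh1a7 has a similar sequence and could share signal with it, and had 101 in the null array and 93.9 in the control array on its own probe set. Aldh1a3 was under the floor in both arrays on all 3 probe sets, with signals from 6.19 to 9.71 in the null array and from 3.32 to 15.4 in the control array, so no direction is given.

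Rdh10, which performs the first and limiting oxidation in the embryo, was the gene with the ratio nearest to 0. Its signal was 785 in the null array and 791 in the control array on probe set 1426968_a_at, and 358 in the null array and 387 in the control array on probe set 1460632_at. The log2 ratios were -0.01 and -0.12, both within 1 SD of bright probe sets. Rdh10 was the 1 gene of the 10 with more than 1 probe set brighter than the floor.

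For carriage and uptake, Rbp4, the serum carrier of retinol, had a signal of 107 in the null array and 135 in the control array, a log2 ratio of -0.33. Stra6, the receptor that takes retinol from that carrier, had 151 in the null array and 121 in the control array, a log2 ratio of 0.33. The ratios point in opposite directions, and each is 1.02 or 1.01 times the SD of dim probe sets. Ratios of this size in either direction or larger were found in 34.0% and 34.3% of genes.

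The breakdown enzymes gave signals on different sides of the control values. Cyp26a1, the enzyme induced by retinoic acid, had 75.8 in the null array and 55.6 in the control array, a log2 ratio of 0.45 or 1.38 times the SD. Both signals were above the floor, 11.2% of genes had a ratio as high, and 22.1% had one as large in either direction. Cyp26b1, known for keeping retinoic acid away from limb mesenchyme and germ cells, had 15.9 in the null array and 51.1 in the control array, which makes it at least 1.70-fold lower. The measured signals differ 3.22-fold, so that it passed 2-fold with no floor. Of the 323 genes above the floor in the control array alone, 70 were as bright there as Cyp26b1 or brighter. The difference between the ratios of these enzymes was not tested, since a single pair of arrays allows no test.

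**Figure D2:**
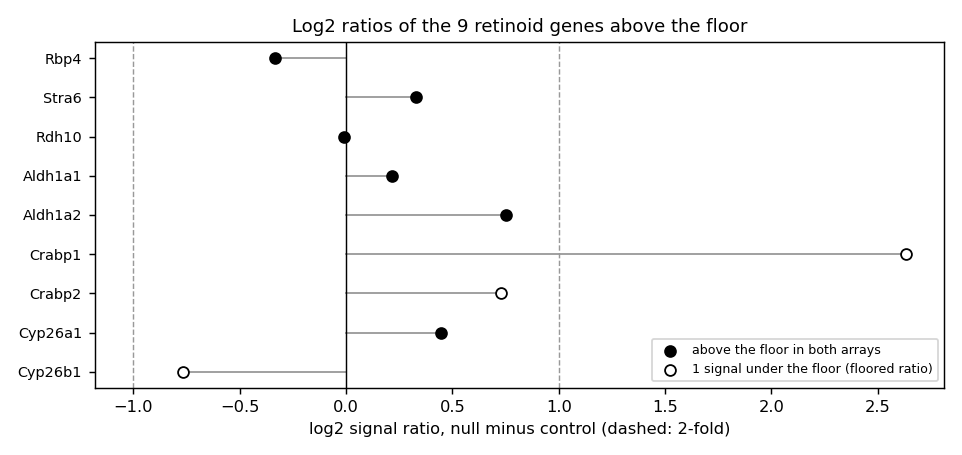
Log2 signal ratio (null minus control, x axis) of the 9 genes above the floor in at least 1 array, ordered from carriage at the top to breakdown at the bottom, with filled points for genes above the floor in both arrays, open points for floored ratios and broken lines at 2-fold. Crabp1 at 2.63 is the 1 gene past 2-fold, and Rdh10 lies at -0.01.

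Over the 9 genes above the floor, 6 ratios were positive and 3 negative, with Rdh10 turning to 0.02 when each array was centred on its median. Of all 11833 measured genes, 6185 had positive and 5648 negative ratios. The median log2 ratio of the 9 genes was 0.33, where all measured genes had a median of 0.02. Of these 9, 3 passed the floor through 1 array and so had to differ, and the direction of their ratios follows from that. The 6 genes above the floor in both arrays had a median of 0.27, where the 11137 such genes of the whole array had 0.02. Their ratios ran from -0.33 for Rbp4 to 0.75 for Aldh1a2.

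**Figure D3:**
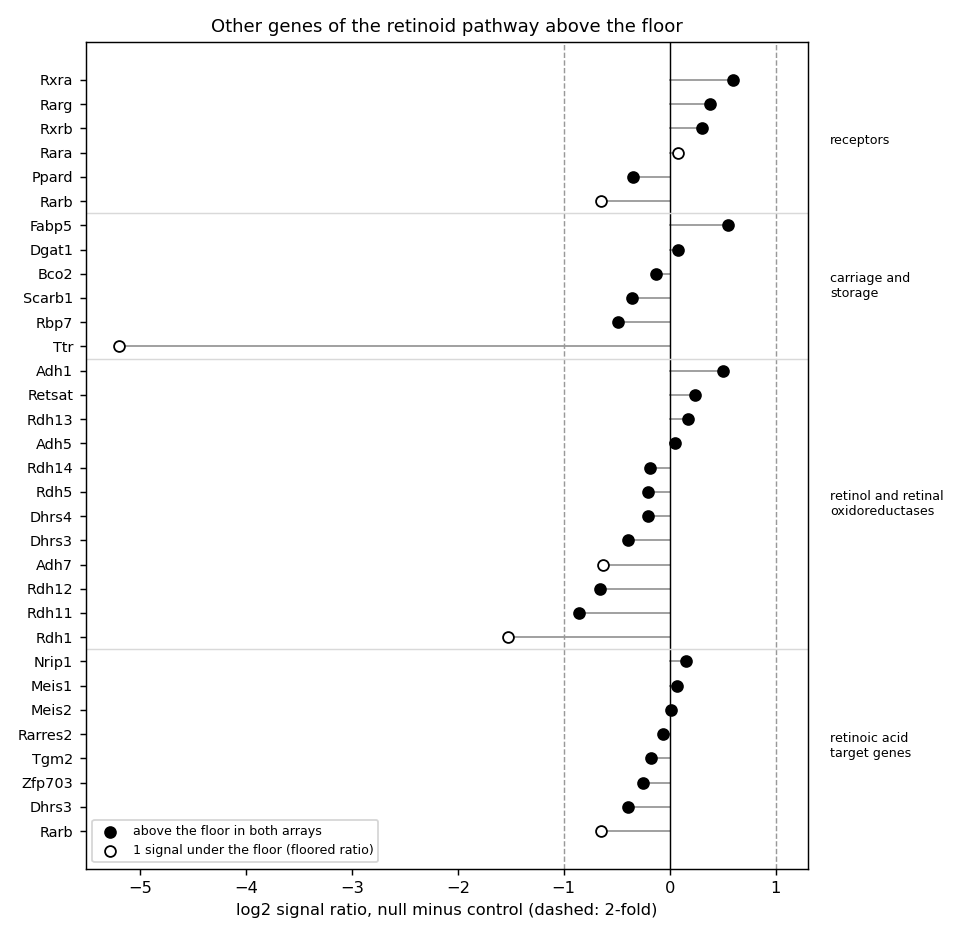
Log2 signal ratio (null minus control, x axis) of other retinoid pathway genes above the floor, grouped by role, with filled points for genes above the floor in both arrays and open points for floored ratios. Ttr at -5.20 and Rdh1 at -1.53 are the genes past 2-fold, shown by the broken lines, and the receptors run from -0.65 for Rarb to 0.60 for Rxra.

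Of the nuclear receptor genes, 0 passed 2-fold in either direction, where 1.59% of all measured genes were higher and 1.8% lower. With shares this small, a count of 0 among so few genes says little about them. Of 7 receptor genes 6 were above the floor in at least 1 array, 4 with positive and 2 with negative ratios, and their median log2 ratio was 0.19. Rara and Rarb passed the floor through 1 array, and the direction of their ratios follows from that. The 4 genes above it in both arrays had a median of 0.34. Rxra had a signal of 132 in the null array and 86.9 in the control array, a log2 ratio of 0.60, but another of its probe sets, also bright enough in each array, gave -0.36, so its direction is not settled. Rarg had 130 in the null array and 99.8 in the control array. Rxrb had 351 in the null array and 284 in the control array. Ppard, which can also take retinoic acid delivered by Fabp5, had 38.2 in the null array and 48.6 in the control array. Rara was near the floor, at 32.7 in the null array and 27.4 in the control array, and Rxrg was under it in both. Rarb, the receptor gene that is itself induced by retinoic acid, had 27.1 in the null array and 47.2 in the control array, at least 1.57-fold lower.

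Genes known to respond to retinoic acid showed no common direction. Of 13 target genes with a probe set 8 were above the floor, and 3 of these had positive and 5 negative ratios. Past 2-fold there were 0 either way, where 1.59% of all measured genes were higher and 1.8% lower. The median log2 ratio of the 8 was -0.12, and the highest was 0.15, on the brightest probe set of each gene. Rarb passed the floor in the control array alone, so the direction of its ratio follows from that. The 7 genes above it in both arrays had a median of -0.06. Cyp26a1 is not in this list, and Rarb and Dhrs3 are also counted among the receptors and the oxidoreductases. Cyp26a1 and Rarb, which share the direct repeat printed above, lay on opposite sides, at 0.45 and at a floored ratio of -0.65. Dhrs3, a retinal reductase that is induced by retinoic acid and lowers its synthesis, had 174 in the null array and 228 in the control array, a log2 ratio of -0.39. The transcriptional repressor gene Zfp703 had 791 in the null array and 942 in the control array, a log2 ratio of -0.25. The transglutaminase gene Tgm2 had -0.17, and 4 further probe sets gave ratios from -0.84 to -0.15. Hoxb1, Cdx1, Stra8, Rarres1 and Gbx2 did not reach the floor in either array.

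Among carriage and storage genes, 6 of 9 with a probe set were above the floor, 2 with positive and 4 with negative ratios, with a median of -0.24. The 5 genes above it in both arrays had a median of -0.13. The remaining gene, Ttr, passed it in the control array alone, and the direction of its ratio follows from that. Ttr, transthyretin, the partner that Rbp4 rides on in blood, was the 1 gene past 2-fold. It was lower, where 1.8% of all measured genes were, and 0 of the list were higher, where 1.59% were. Its signal was 13.8 in the null array and 1106 in the control array, at least 36.8-fold lower, and 3 further probe sets gave bounds of 21.5-fold, 17.1-fold and 9.08-fold lower. The fatty acid-binding protein gene Fabp5, an alternative carrier of retinoic acid, had 2540.5 in the null array and 1729 in the control array, a log2 ratio of 0.55. The retinol-binding protein gene Rbp7 and the lipoprotein receptor gene Scarb1, which takes up carotenoids, had log2 ratios of -0.49 and -0.35. Rbp2, Lrat and Bco1 did not reach the floor.

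Of 14 further oxidoreductase genes with a probe set, 12 were above the floor, 4 with positive and 8 with negative ratios, and their median was -0.21. The 10 genes above it in both arrays had a median of -0.20. The others passed it through 1 array, and the direction of their ratios follows from that. Rdh1, a retinol dehydrogenase, was the 1 gene past 2-fold. It was lower, where 1.8% of all measured genes were, and 0 of the list were higher, where 1.59% were. Its signal was 19.1 in the null array and 86.7 in the control array, at least 2.89-fold lower, on a single probe set, and close relatives in its gene cluster could share signal with it. Rdh11 had 178 in the null array and 322 in the control array, a log2 ratio of -0.86, with -0.31 on its second probe set. Rdh12 and Adh7 had -0.66 and a floored -0.63, with a floored -0.11 on the second Adh7 probe set. The highest ratio of the 12 genes was 0.50. Adh4 and Rdh16 did not reach the floor.

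The cells were labelled stromal, and their markers were bright in both arrays. All 14 stromal markers were above the floor, and 0 passed 2-fold, where 1.59% of all measured genes were higher and 1.8% lower. The stromal median was 0.14, with 10 positive and 4 negative ratios that ran from -0.32 to 0.80. The collagen gene Col1a2 had 12448 in the null array and 11212 in the control array. Epithelial markers were present as well, with 12 of 12 above the floor in both arrays and a summed signal of 9843 in the null array and 11381 in the control array. Of their ratios 3 were positive and 9 negative, with a median of -0.11, and the keratin genes Krt19 and Krt18 passed 2-fold in opposite directions, at 1.04 and -1.06. All 7 markers of gland epithelium were past 2-fold lower, with a summed signal of 604 in the null array and 7769 in the control array. This list holds genes already known from these data to be low. The direction of Ttr and Rdh1 was the same as that of the gland markers, and the part of gland RNA in those ratios was not tested.

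Other cell types and signs of handling also differed between the arrays that gave the ratios of Crabp1, Crabp2, Aldh1a2 and Cyp26b1. Of the 9 endothelial and 7 macrophage markers, all had negative ratios, with medians of -0.69 and -0.72 and summed signals of 2453 and 3458 in the null array and 3745 and 5268 in the control array. All 6 natural killer markers had positive ratios, with a median of 0.62 and a summed signal of 2961 in the null array and 1674 in the control array. Of 6 smooth muscle markers 5 had positive ratios, with a median of 0.53 and a summed signal of 11784 in the null array and 8782 in the control array. Immediate early and heat shock genes, which tissue digestion can induce, were negative in 12 of 12, with a median of -0.68 and a summed signal of 32855 in the null array and 45178 in the control array. The ratio of the 3′ to the 5′ probe set, which goes up as RNA degrades, was 1.28 in the null array and 0.967 in the control array for Gapdh. For Actb it was 2.33 in the null array and 1.80 in the control array. The part of these differences in the retinoid ratios was not tested. Aldh1a2 is also a gene of mesothelium, the layer that covers the uterus. Of its 6 markers, Msln, Upk3b, Lrrn4 and Muc16 stayed below the floor throughout, Upk1b had 49.7 in the null array and 49.9 in the control array, and Wt1, which stromal cells also express, had 491 in the null array and 292 in the control array.

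**Figure D4:**
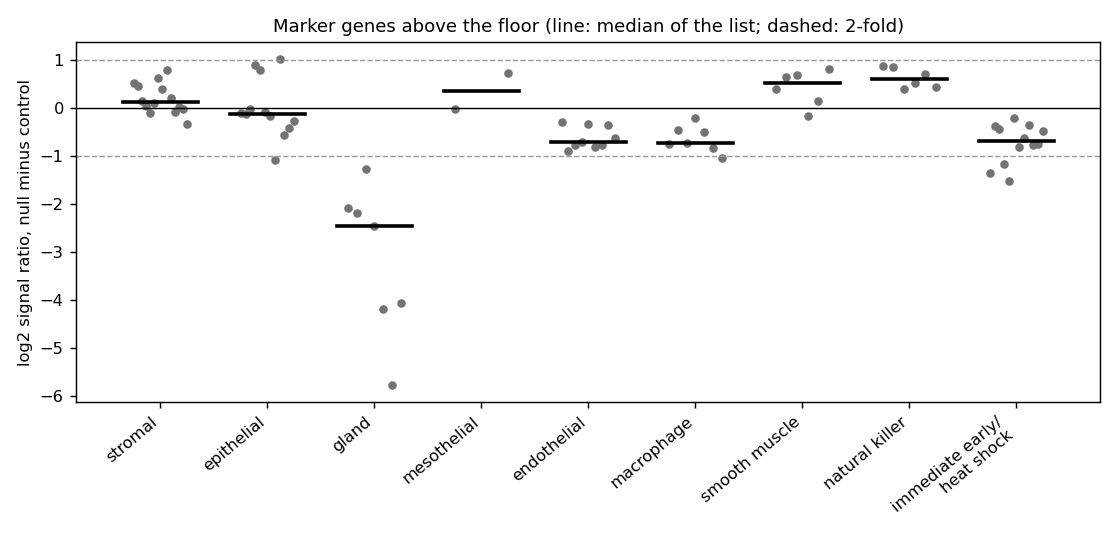
Log2 signal ratio (null minus control, y axis) of each marker gene above the floor, by cell type on the x axis, with the thick line at the median of the list and broken lines at 2-fold. Stromal markers centre near 0 with a median of 0.14, gland markers are all past 2-fold lower, and natural killer markers are all positive.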

How the data were processed

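Per the design text, the authors pooled stromal cell RNA of each genotype and hybridized it to Affymetrix arrays. The deposited table holds linear MAS5 signal intensities. Per the submitters' processing notes the software was Affymetrix Expression Console 1. Trimmed by 2% at each end, the mean signal was 150.0 in both arrays, so the values had been scaled. Background settings are not given in the sources used here, and neither are detection calls.

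Of 45101 probe sets, 64 were controls, 34945 had 1 platform symbol, 932 several and 9160 none. Only those with 1 symbol named genes. Dhrs9 and Cyp26c1 had no such probe set and were not analysed here, and some listed genes are not reported here. Entrez IDs of 34741 probe sets were in the RefSeq table and 0 symbols changed. Where a gene had several probe sets, the one brightest on average stood for it. Ratios are log2, null minus control. The floor was the 50th percentile of non-control probe sets, and 11833 of 18193 genes had at least 1 signal above it. With 1 array per genotype no p-value was computed and genes were called by size, at 2-fold. Tables were made with Python 3.11.15 and pandas 2.3.3, and the ratio step was tested on simulated data. The precision is limited by the number of arrays.

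The 10 genes, the lists, the settings and the alternatives were chosen with earlier results of these data known. All 10 genes, Msx1 and Msx2 and every receptor are named, with up to 4 genes of each other pathway list by size of ratio, those under the floor in both arrays by name only, and up to 3 of the brightest markers of each cell type. Aldh1a7, Meis2, the mesothelial markers outside that rule, Krt19, Gapdh and Actb are named as context, after their values were seen. Alternatives were other floors, no floor, other choices of probe set, other scalings, a pseudocount and a lower fold.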

Additional observations from a re-analysis of the deposited data

How the results depend on the processing

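Of 127 alternative values, 117 moved by less than the probe noise SD of 0.27 (counts, by no more than 1.5 times), and 10 moved further. Many of the 117 could not move. A gene with 1 probe set keeps its ratio under another choice of probe set, and a ratio of signals above the floors is not changed by them. The log2 ratio of Crabp1 was the only ratio or median of 2-fold or more. It kept its sign, which follows from its being above the floor in the null array alone. The log2 ratio of Crabp1 was 1.23 with a floor at the 65th percentile and 1.85 with a pseudocount of 32. That of Crabp2 was 4.41 with no floor and 1.28 with the pseudocount, and that of Cyp26b1 was -1.69 with no floor. With no floor, 2 of the 10 genes were past 2-fold higher and 1 lower, where 1797 and 1772 of all 18193 genes were. With the pseudocount 2 were higher and 0 lower, where 99 and 129 of 11833 genes were. At a threshold of 1.5-fold, 3 were higher and 1 lower, where 804 (6.79%) and 819 (6.92%) of 11833 genes were. A higher floor shrinks, and no floor widens, ratios against a dim signal by construction, whereas the pseudocount moved Crabp1 toward 0 and Crabp2 away from it. The 65th percentile floor was 81.0 in the null array and 81.8 in the control array. Crabp2, Cyp26a1 and Cyp26b1 were under it in both arrays, so they had no ratio at that setting and are not among the values counted for it. Rdh10 turned to 0.02 when arrays were centred on their medians. Over all genes, 97 of 9655 were past 2-fold higher and 123 lower with the 65th percentile floor, against 188 and 213 of 11833 in the main setting. No paired analysis was possible because each group has 1 array, and for the same reason no array could be left out. Signals near or under the floor limit Crabp2, Cyp26b1, Rarb and the control value of Crabp1.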
